A study of Mus musculus with 2 samples.

Results

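Conjugating enzymes join a reactive or foreign compound to glutathione, to a sugar or to sulfate, which makes it more soluble in water and easier to export. The 57 genes described here are the glutathione transferases, the microsomal glutathione transferases, the UDP-glycosyltransferases and the cytosolic sulfotransferases. They were taken from an array of 19505 named genes as every gene whose platform symbol begins with Gst and a letter, or with Mgst, Ugt or Sult and a digit. By these prefixes, 22 were Gst genes, 3 Mgst genes, 11 Ugt genes and 21 Sult genes, each represented by 1 probe identifier. The Ugt1a genes were not analysed here.

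One RNA sample came from lung cells of mice after 3 months of smoke, and the other from lung cells of control mice after 3 months of air. Both populations were sorted as positive for SPC/GFP and for EpCAM; SPC usually stands for surfactant protein C, which marks alveolar type 2 cells, and EpCAM marks epithelium. The labels do not state the kind of smoke, the strain, sex and age of the mice, the promoter behind the reporter or any pooling of animals. Each condition was hybridised to 1 Clariom S Mouse array, so every difference compares a pair of arrays, and the number of arrays limits the precision. No SD between replicates, standard error or p-value exists for any value below.

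Glutathione transferases join glutathione to electrophiles, among them the aldehydes, epoxides and quinones that smoke contains or that oxidised lipids release. UDP-glucuronosyltransferases move glucuronate from UDP-glucuronate, and sulfotransferases move sulfate from PAPS, the activated form of sulfate. In liver and airway many of these genes are targets of the transcription factor NRF2, which binds antioxidant response elements, or of the aryl hydrocarbon receptor, which binds xenobiotic response elements.

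Most of the measurable conjugating enzymes had similar signals on both arrays. Signals are the deposited log2 values, and differences are smoke minus air. A gene was counted as measurable when its brighter array reached 4.57, the median of all probe values. This level filter kept 23 of the 57 genes, comprising 15 of 22 Gst genes, 3 of 3 Mgst genes, 1 of 11 Ugt genes and 4 of 21 Sult genes. Of the 23, Gstp3 was at least 2-fold higher in smoke, Gstcd was at least 2-fold lower, and the other 21 lay within 2-fold. Over the 10419 genes of the array that passed the same filter and could be measured, 3.94% were higher in smoke by 2-fold or more and 2.48% were lower by as much. The single enzyme in each direction equals 4.35% of the 23, which is near that background. Among the 200 genes nearest in mean level to each enzyme, taken outside the enzyme families, an average of 3.09% passed 2-fold upward and 1.61% downward.

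Among the glutathione transferase classes above the filter, the Pi class, a run of neighbouring genes on chromosome 19, held the widest range of differences, from -0.20 to 1.21. For this reason the sequence before each gene's annotated span is shown, on the gene's strand. It covers 250 bases for Gstp2 and Gstp1 and 92 for Gstp3, because the other 158 bases of the Gstp3 window in the table lie inside the gene's span. Capitals mark matches on either strand to the AP-1 element TGACTCA or to the xenobiotic response element core GCGTG. The sequences are from RefSeq, build GRCm38.p6, minus strand. They lie at chr19:4059606-4059697 for Gstp3, chr19:4042222-4042471 for Gstp2 and chr19:4037913-4038162 for Gstp1.
Gstp3: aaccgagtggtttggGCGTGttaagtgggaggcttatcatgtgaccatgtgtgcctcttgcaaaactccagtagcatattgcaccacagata
Gstp2: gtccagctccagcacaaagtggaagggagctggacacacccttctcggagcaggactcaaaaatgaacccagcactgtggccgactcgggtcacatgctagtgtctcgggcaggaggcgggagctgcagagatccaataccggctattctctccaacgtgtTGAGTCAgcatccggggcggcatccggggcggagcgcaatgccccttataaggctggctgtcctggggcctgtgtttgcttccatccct
Gstp1: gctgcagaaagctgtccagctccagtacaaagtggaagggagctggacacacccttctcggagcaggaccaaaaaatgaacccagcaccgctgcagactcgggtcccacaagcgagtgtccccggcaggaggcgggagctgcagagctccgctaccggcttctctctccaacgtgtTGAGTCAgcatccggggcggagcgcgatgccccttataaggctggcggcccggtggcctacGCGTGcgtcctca
In a global alignment, 207 of the 250 bases were identical between Gstp2 and Gstp1, or 82.8%. Over the 92 bases next to each gene, 70.7% were identical between Gstp2 and Gstp1, 47.8% between Gstp3 and Gstp2 and 51.1% between Gstp3 and Gstp1. These alignments held 8, 24 and 26 gap positions, and no unrelated sequences were aligned for comparison. The start used for the Gstp3 window lies 158 bases inside its span. Its 92 bases are therefore farther from that start than those of Gstp2 and Gstp1 are from theirs, and may not be matching positions. The AP-1 match on the opposite strand began 89 bases before Gstp2 and 74 bases before Gstp1. The 92 bases shown for Gstp3 held no match to TGACTCA; their match to GCGTG began 77 bases before the gene, and that of Gstp1 began 13 bases before. The matches are descriptions of these windows and say nothing of which factor binds there.

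Gstp3 had a signal of 10.96 in the smoke sample and 9.75 in the air sample. This is a log2 difference of 1.21, or 2.31-fold. It was the only one of the 23 enzymes that exceeded the median of genes of like level by more than 2 of their robust SDs (a scaled median absolute deviation over the 200 nearest genes, here 0.39). Of all measurable genes, 4.37% lay farther than that above the median and 3.52% farther below it. The neighbouring Gstp2 was at 13.19 in smoke and 12.75 in air, a difference of 0.44. Gstp1, the best studied Pi enzyme of the mouse, was at 13.62 in smoke and 13.82 in air, a difference of -0.20. Gstp3 was at least 2-fold higher under each normalization, offset and level filter tried, and not at a 3-fold threshold. The order of the differences, Gstp3 over Gstp2 over Gstp1, also held under quantile normalization, at 1.08, 0.32 and -0.30, and after centring on genes of like level, at 1.12, 0.34 and -0.24. Gstp1 and Gstp2 are closely related copies, and probe sequences were not used here, so how well the array separates them was not examined.

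**Figure D1:**
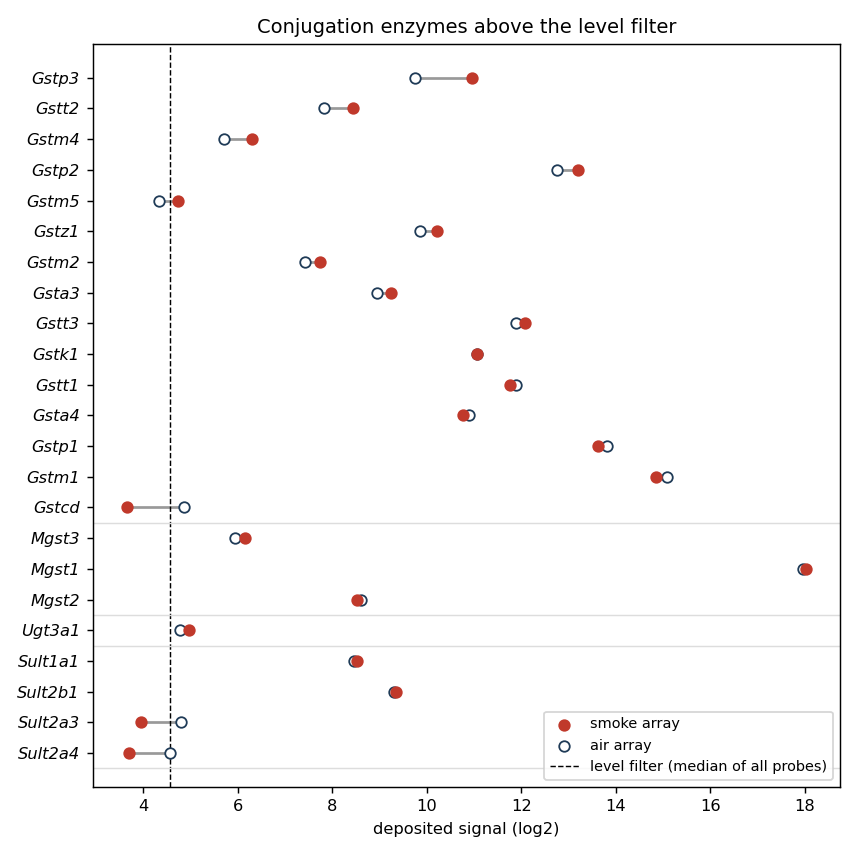
Deposited log2 signal (x axis) of the 23 conjugating enzymes that passed the level filter, with the smoke array as filled points, the air array as open points and 1 row per gene, grouped as Gst, Mgst, Ugt and Sult genes and ordered by difference. Gstp3 has the widest gap toward smoke, and Gstcd, Sult2a3 and Sult2a4 lie below the dashed filter line of 4.57 in smoke.

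The Mu class, which conjugates epoxides and quinones, has its 7 genes side by side on chromosome 3. Gstm1 was at 14.84 in smoke and 15.08 in air, a difference of -0.24. The next gene of the run, Gstm4, was at 6.31 in smoke and 5.71 in air, a difference of 0.60 or 1.52-fold, which is 0.99 robust SDs above the median of genes of like level. Gstm2 was at 7.75 in smoke and 7.43 in air. Gstm5 was at 4.74 in smoke and 4.33 in air, so it passed the filter by its smoke signal alone. The 3 other Mu genes, Gstm3, Gstm6 and Gstm7, stayed below the filter on both arrays and differed by -0.33, -0.23 and 0.43. The class thus held differences of both signs, each smaller than 2 robust SDs of genes of like level.

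In the Theta class, which acts on small halogenated compounds and sulfate esters, Gstt2 was at 8.44 in smoke and 7.83 in air, a difference of 0.61 or 1.53-fold. Its relatives in the same cluster on chromosome 10 differed less. Gstt3 was at 12.07 in smoke and 11.88 in air, and Gstt1 was at 11.77 in smoke and 11.88 in air. Gstt4 was below the filter, at 3.31 in smoke and 3.76 in air.

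The Alpha class includes enzymes for lipid peroxidation products. Gsta4, which conjugates the lipid aldehyde 4-hydroxynonenal, was at 10.77 in smoke and 10.89 in air, a difference of -0.12. Gsta3, the Alpha enzyme known in mouse liver for conjugating the aflatoxin epoxide, was at 9.25 in smoke and 8.94 in air, a difference of 0.31. Gsta2 lay below the filter, at 3.29 in smoke and 2.92 in air.

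The mitochondrial Kappa enzyme Gstk1 had the same signal, 11.06, on both arrays. Gstz1, the Zeta enzyme that also isomerises maleylacetoacetate in tyrosine breakdown, was at 10.21 in smoke and 9.86 in air, a difference of 0.35. The Omega genes Gsto1 and Gsto2, whose products reduce dehydroascorbate, were both below the filter. Gsto1 was at 3.73 in smoke and 3.17 in air, the largest positive difference, 0.56, among the enzymes below the filter.

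Gstcd encodes a protein with a domain like the C-terminal part of a glutathione transferase, and its locus has been linked to lung function in humans. It was at 3.65 in smoke and 4.86 in air, a log2 difference of -1.21, or 2.31-fold lower, a distance of -2.43 robust SDs from the median of genes of like level. The gene passed the filter by its air signal alone. Its call ended with an offset of 16 added on the linear scale, where the difference was -0.66, and under filters on the mean of both arrays or at the 75th percentile, which it did not pass. The overlapping neighbour Ints12, a subunit gene of the Integrator complex, was at 8.30 in smoke and 7.92 in air.

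All 3 microsomal glutathione transferases stayed close between the samples. Mgst1, a glutathione transferase and peroxidase of the endoplasmic reticulum and outer mitochondrial membrane, was at 18.03 in smoke and 17.95 in air, a difference of 0.08. Mgst2, which can also make leukotriene C4 from its epoxide precursor, was at 8.52 in smoke and 8.61 in air. Mgst3 was at 6.15 in smoke and 5.95 in air. The 3 differences ran from -0.09 to 0.20, each within 1 robust SD of the median of genes of like level.

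Across the 15 Gst genes above the filter, 9 differences were positive, 5 negative and 1 was 0, with a median of 0.31. The median over all 10419 measurable genes was 0.06, and 54.3% of them were higher in smoke. The Gst median was 0.21 under quantile normalization and 0.25 after centring, with 9 positive and 6 negative differences in both. Over all 22 Gst genes, those below the filter included, the median was 0.25. Of the 15, 3 were at least 1.5-fold higher (Gstp3, Gstt2 and Gstm4) and 1 at least 1.5-fold lower (Gstcd), while 14.5% and 9.19% of all measurable genes passed 1.5-fold in these directions. These counts describe the genes that passed the filter and carry no test.

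**Figure D2:**
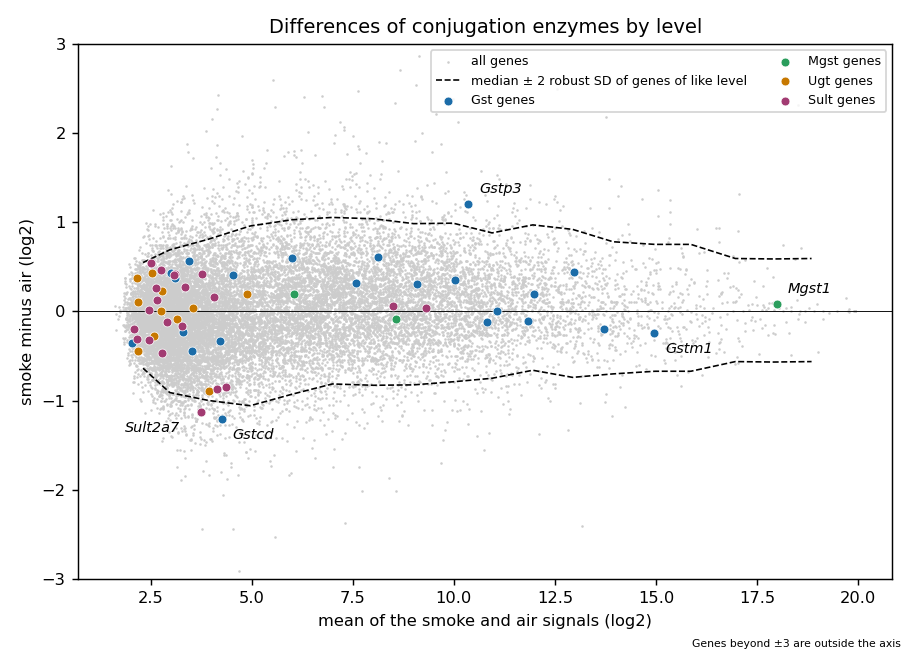
Difference of smoke minus air (log2, y axis) against the mean of both signals (log2, x axis) for all genes in grey and the 57 conjugating enzymes in colour by family; dashed lines show the median plus and minus 2 robust SDs of genes of like level. Gstp3 lies above the upper line, Gstcd and Sult2a7 lie below the lower one, Ugt3a2 is close to it, and most Ugt and Sult genes crowd at low signals.

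Of the UDP-glycosyltransferases, only Ugt3a1 passed the filter, at 4.97 in smoke and 4.78 in air. Enzymes of the Ugt3 family use sugars other than glucuronate. The 10 other Ugt genes had signals of at most 4.40 on either array. Their differences ran from -0.89 to 0.43, with 5 higher, 4 lower and 1 at 0. All 8 measured Ugt2 genes, which glucuronidate steroids and bile acids in liver, were at or below 3.57 in smoke and 3.53 in air. Ugt3a2 had the largest difference of the family, at 3.51 in smoke and 4.40 in air, a distance of -2.07 robust SDs from the median of genes of like level. Ugt8a, which makes the galactolipids of myelin, was at 2.45 in smoke and 2.73 in air. No detection calls were used, so a low signal here is not evidence that a transcript was absent.

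Among the sulfotransferases, Sult1a1, the main phenol sulfotransferase, was at 8.52 in smoke and 8.46 in air. Sult2b1, which sulfates cholesterol in epithelia, was at 9.34 in smoke and 9.30 in air. These differences of 0.06 and 0.04 were -0.06 and -0.08 under quantile normalization and -0.06 and -0.04 after centring. With Gstk1, they are the 3 of the 23 enzymes whose sign changed with the scaling.

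The other Sult genes above the filter were Sult2a3 and Sult2a4, which belong to a subfamily that sulfates steroids and bile acids in liver. Sult2a3 was at 3.95 in smoke and 4.80 in air, a difference of -0.85. Sult2a4 was at 3.70 in smoke and 4.57 in air, a difference of -0.87. Both passed by their air signals alone, and both differences shrank with the offset, to -0.48 and -0.46. Sult2a7, in the same cluster on chromosome 7, was below the filter at 3.18 in smoke and 4.31 in air, a difference of -1.13; it was the only one of the 34 enzymes below the filter past 2-fold, while 2.27% of all genes below the filter passed 2-fold in either direction. The other 5 genes of the cluster differed by -0.16 to 0.46. Members of this cluster are close relatives, and whether their probes separate them was not examined. The remaining 11 Sult genes, among them the estrogen sulfotransferase Sult1e1 (2.47 in smoke and 2.45 in air), were below the filter on both arrays.

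**Figure D3:**
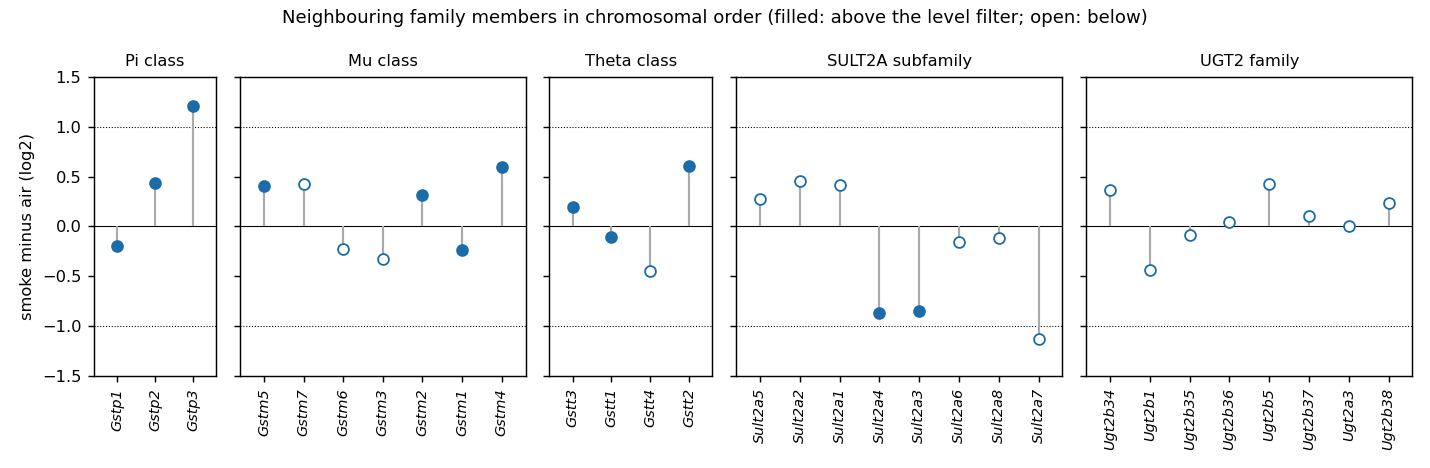
Difference of smoke minus air (log2, y axis) for genes of the Pi, Mu, Theta, SULT2A and UGT2 groups, each in chromosomal order (x axis), with filled points above the level filter and open points below it; dotted lines mark 2-fold. Differences of both signs stand side by side in each group, and Gstp3 at 1.21 is the only filled point past a dotted line.

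Short sequence matches were counted in the 250 bases before the annotated starts of the enzymes. Of the 57 genes, 50 had at least 1 such window in the RefSeq table, with 63 windows in all, against 32851 windows over all genes; both strands were searched. The antioxidant response element core TGACNNNGC, whose letters can overlap those of the AP-1 element, was in 6.35% of the enzymes' windows and 10.16% of all windows. TGACTCA was in 11.11% of the enzymes' windows and 4.46% of all, and GCGTG in 19.05% and 28.16%. The share for TGACTCA rests on 7 windows. They include those of the neighbours Gstp1 and Gstp2, which are 82.8% identical and so not independent. The D-box TTATGTAA was in the window of Ugt2b1 alone, and TTACGTAA in none. The core TGACNNNGC was found at Gsta3, Mgst1, Gstm5 and Gstm7. No other form of this element was searched, so genes not named here may still carry one. A window can lie inside the annotated span of its gene, as that of Gstp3 does in part.

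Genes that supply the cofactors were then read from lists. Glutathione synthesis, recycling and breakdown had 19 of 22 measured genes above the filter, of which 9 were higher in smoke and 10 lower, with a median of -0.06. The median was -0.10 under quantile normalization and -0.09 after centring. Over all measurable genes the median was 0.06, and 54.3% were higher in smoke. None of the 19 passed 2-fold, while 3.94% of all measurable genes were higher and 2.48% lower by as much. Gclc, the catalytic subunit of the rate-limiting enzyme of glutathione synthesis, was at 15.59 in smoke and 15.76 in air. Its modifier subunit Gclm was at 9.96 in smoke and 10.07 in air, and the glutathione reductase Gsr was at 10.91 in smoke and 11.38 in air. Slc7a11, the cystine importer, was at 4.70 in smoke and 4.14 in air, so it passed the filter by its smoke signal alone. Anpep, a membrane peptidase that splits the dipeptide left by glutathione breakdown, was the 1 gene of the list past 1.5-fold, at 16.65 in smoke and 17.24 in air. Of all measurable genes, 14.5% were higher and 9.19% lower by 1.5-fold or more.

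For UDP-glucuronate supply and glucuronide hydrolysis, all 9 listed genes were above the filter, with 7 higher and 2 lower in smoke and a median of 0.40, which was 0.44 under quantile normalization (over the same 9 genes) and 0.47 after centring. Over all measurable genes 54.3% were higher and 14.5% were so by 1.5-fold or more. The 4 genes of the list at least 1.5-fold higher were Uxs1, Slc35d1, Pgm1 and Gusb. Uxs1, which turns UDP-glucuronate into UDP-xylose, was at 7.38 in smoke and 6.57 in air. Slc35d1, which carries UDP-glucuronate into the endoplasmic reticulum, was at 7.0 in smoke and 6.21 in air. Pgm1, a phosphoglucomutase, was at 12.03 in smoke and 11.25 in air, and Gusb, the lysosomal glucuronidase, was at 8.15 in smoke and 7.40 in air. Ugdh, the dehydrogenase that makes UDP-glucuronate, was at 5.81 in smoke and 6.02 in air. Each of the 4 lay within 2 robust SDs of genes of like level, and none passed 2-fold.

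On the sulfate side, 9 of 11 measured genes were above the filter, 8 higher and 1 lower in smoke, with a median of 0.34. The median was 0.23 under quantile normalization and 0.24 after centring, with 7 higher and 2 lower in both. Over all measurable genes 54.3% were higher and 3.94% were so by 2-fold or more. Bpnt2, the Golgi phosphatase that clears the nucleotide left after sulfate transfer, was at 9.41 in smoke and 7.84 in air, a log2 difference of 1.57 or 2.97-fold, and 3.19 robust SDs above the median of genes of like level. Slc35b3, a carrier of PAPS into the Golgi, was at 6.93 in smoke and 6.13 in air. Arsg, a lysosomal sulfatase, was at 4.94 in smoke and 3.94 in air, a difference of 1.0 that rested on an air signal below the filter and was 0.57 with the offset. The PAPS synthases differed little: Papss1 was at 8.78 in smoke and 8.68 in air, and Papss2 at 6.21 in smoke and 6.25 in air.

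A list of conjugate exporters and organic anion carriers had 9 of 11 measured genes above the filter, 4 higher and 5 lower in smoke, with none past 2-fold. Over all measurable genes 54.3% were higher, and 3.94% were higher and 2.48% lower by 2-fold or more. Abcc1 and Abcc3, which export glutathione and glucuronide conjugates, were at 5.38 and 12.15 in smoke, against 5.73 and 12.34 in air. Abcc6 was at 4.35 in smoke and 5.33 in air. It passed the filter by its air signal alone, and its difference was -0.63 with the offset. The organic anion carriers Slco3a1 and Slco2a1 differed by -0.79 and 0.71. Slco3a1 and Abcc6 lay -2.29 and -2.16 robust SDs from the median of genes of like level, and the rest of the 9 within 2. Of all measurable genes, 3.52% lay more than 2 robust SDs below that median and 4.37% above it. Of 13 measured transferases of other chemistry, 6 were above the filter and none passed 2-fold. Hnmt, which methylates histamine, had the largest difference, at 10.86 in smoke and 9.98 in air. It lay 2.05 robust SDs above the median of genes of like level. Tst, the sulfurtransferase rhodanese, was at 9.36 in smoke and 8.77 in air, 1.51-fold higher.

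Among 19 measured regulators, 15 were above the filter, and Dbp was the only one past 2-fold. Of all measurable genes, 3.94% were higher and 2.48% lower by 2-fold or more. Dbp, a clock-controlled factor that with its relatives Tef and Hlf governs detoxification genes in mouse liver and kidney, was at 16.48 in smoke and 8.05 in air. Its log2 difference of 8.43 was the highest of all measurable genes, 18.99 robust SDs above the median of genes of like level. The sample facts used here hold no time of day of collection. Tef was at 4.90 in smoke and 3.92 in air. It passed the filter by its smoke signal alone, and its difference was 0.56 with the offset. Hlf was below the filter on both arrays. Nfe2l2, which encodes NRF2, was at 5.93 in smoke and 5.96 in air, and its inhibitor Keap1 at 8.37 in smoke and 8.02 in air. The aryl hydrocarbon receptor gene Ahr was at 6.31 in smoke and 6.34 in air. Nr1i2 and Nr1i3, the xenobiotic receptors PXR and CAR of liver, were below the filter on both arrays.

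**Figure D4:**
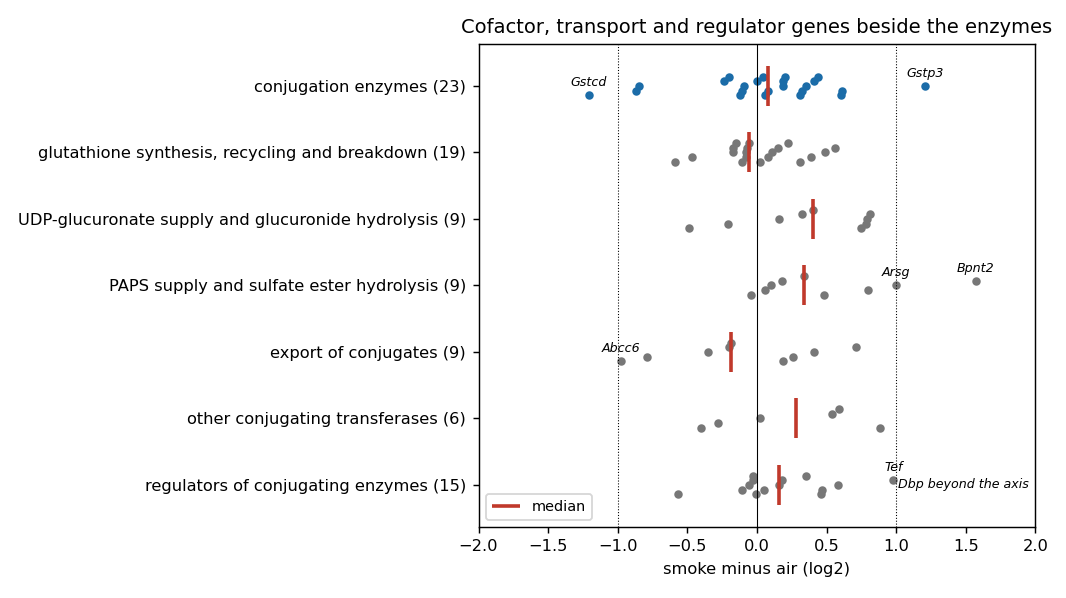
Differences of smoke minus air (log2, x axis) for genes above the level filter, with 1 point per gene, 1 row per list and the number of genes in brackets; red bars are medians and dotted lines mark 2-fold. The medians are 0.08 for the conjugating enzymes, -0.06 for the glutathione list, 0.40 for the UDP-glucuronate list and 0.34 for the PAPS list; Dbp, at 8.43, lies beyond the axis.

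The sorted population was checked with 7 marker lists. All 16 alveolar type 2 markers were above the filter, and 7 of them sat at the highest deposited value, 19.93, in both samples. The 9 others had a median difference of 0.04, with 6 higher and 2 lower. Chil1 alone passed 2-fold, at 19.66 in smoke and 17.34 in air. Over all measurable genes 54.3% were higher, and 3.94% were higher by 2-fold or more. Club cells, airway cells rich in conjugating enzymes, lie outside the type 2 lineage but also carry EpCAM. Of 13 measured club markers, 9 were above the filter, and Scgb1a1 and Cbr2 had that highest value in both samples. The 13 averaged 9.57 in smoke and 9.88 in air. The 7 measurable ones had a median of -0.21, from Scgb3a1 at 5.02 in smoke and 6.85 in air to Scgb3a2 at 9.0 in smoke and 8.40 in air. Scgb3a1, with a difference of -1.83, was the only one of the 7 past 2-fold. Of all measurable genes, 2.48% were lower by as much.

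All 11 endothelial markers were above the filter, with a mean of 9.67 in smoke and 10.25 in air. Of the 11, 9 were lower in smoke, 2 of them past 2-fold. Over all measurable genes of the array, 54.3% were higher in smoke and 2.48% were at least 2-fold lower. Type 1 markers averaged 10.71 in smoke and 11.01 in air, and 9 of 11 were lower, none past 2-fold. The 11 ciliated markers averaged 6.13 in smoke and 6.20 in air; among the 6 above the filter, Cfap126 differed by 1.56 and Tppp3 by -1.44. The 9 fibroblast markers averaged 5.96 in smoke and 6.18 in air, with 4 higher, 5 lower and a median of -0.05. Col1a1 and Pdgfrb were at least 2-fold lower, and Col3a1, with a difference of 0.63, was at least 1.5-fold higher. The 12 macrophage and neutrophil markers averaged 7.60 in smoke and 7.54 in air, and Chil3 alone passed 2-fold, with a difference of -1.40. Among the 8 measurable ones, 4 were higher and 4 lower. Cxcr2 (0.98), Retnlg (0.90) and Csf3r (0.60) were at least 1.5-fold higher, as were 14.5% of all measurable genes. In the same list, S100a8 and S100a9 differed by 0.28 and -0.19. Retnlg passed the filter by its smoke signal alone, and Lyz2 had the highest value in both samples. For such lists, fewer cells of a type and less RNA per cell cannot be told apart, and the part of other cells in the enzyme values was not tested.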

How the data were processed

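The deposited table holds 1 value for each probe identifier on each array. Its values, between 1.55 and 19.93, were treated as log2 signals, a scale no label states. Transcriptome Analysis Console is named, without a version, per the submitters' processing notes. Background correction, normalization, centring and genome build are stated in no label or file used here. Array medians were 4.53 for smoke and 4.61 for air. Direction follows from the sample labels. The platform annotation gave 1 gene symbol for 19572 of 22206 probes, several for 0, and 2634 are unnamed here; all 57 enzymes matched RefSeq by Entrez number.

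Probes of a gene were averaged. Counts left out 16 genes that had the highest value in both samples. Fold values hold only if the deposited scale is log2. The level filter was 4.57; calls used 2-fold. With 1 array per condition there is no test across samples. Genes above the filter and past 1.5-fold were to be named, with at most 3 low-signal genes per family; others were picked with their values in view. The members and the 13 lists were chosen with earlier results of these data known; of 184 list entries, 16 were not in the table. Alternatives changed the filter, threshold, normalization (quantile), centring (200 nearest genes) and offset (16). Windows were aligned with Biopython 1.88, and calculations used Python 3.11.15, numpy 2.4.6 and pandas 2.3.3.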

Additional observations from a re-analysis of the deposited data

How the results depend on the processing

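No paired analysis was possible because each condition has 1 array. The count of enzymes at least 2-fold higher was 1 under each filter, normalization, centring and offset, 3 at 1.5-fold and 0 at 3-fold. The count at least 2-fold lower was 1 under quantile normalization and centring, 2 without a level filter (Gstcd and Sult2a7), 3 at 1.5-fold, and 0 with a 75th percentile filter, a filter on the mean of both arrays, the offset of 16 or a 3-fold threshold; Gstcd is too dim for the stricter filters. The median difference over enzymes above the filter, 0.08, was 0.19 with the filter on the mean. That of the single Ugt gene, 0.19, was 0.04 over all 11 genes. The Sult median of -0.40 rests on 4 genes, 2 of them near the filter: it was 0.04 without a filter, 0.05 with the 75th percentile filter and with the filter on the mean, -0.08 under quantile normalization, where 3 genes passed (-0.43 over the same 4), and -0.21 with the offset. Of the single genes named by rule, Gstcd alone moved by more than the spread of genes of like level, to -0.66 with the offset. With 1 array each and no detection calls, differences of dim genes are the least certain.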
